A study of Mus musculus with 60 samples.

Results

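Cortical interneuron marker genes were followed in the prefrontal cortex of young mice that carried a Chd8 mutation, or not, and had received fluoxetine, lithium or vehicle. The set was chosen by name and held 10 of the 18088 genes in the deposited table. It comprised the calcium-binding proteins Pvalb (parvalbumin), Calb1 (calbindin) and Calb2 (calretinin), the neuropeptides Sst (somatostatin), Npy (neuropeptide Y), Vip (vasoactive intestinal peptide), Cck (cholecystokinin), Tac1 (the substance P precursor) and Crh (corticotropin-releasing hormone), and the secreted matrix protein Reln (reelin). All 10 were present in the table and all 10 passed the filter on low values, which 17807 genes passed. The 60 libraries were made from C57BL/6J mice on postnatal day 25. Mice were wild type (WT) or carried the Chd8 N2373K allele in the heterozygous state (Het), and male or female. Through their mothers' milk they had received lithium, used against bipolar disorder, fluoxetine, an antidepressant that blocks serotonin reuptake, or vehicle, for 3 weeks, from day 3 to day 24. Each of the 12 combinations of genotype, treatment and sex had 5 libraries. The labels name no litters, so pups of a group can share a mother, and the p-values reflect only how these samples spread.

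Inhibitory neurons of the cortex release GABA, and most fall into classes that these genes mark. Parvalbumin marks fast-spiking cells that contact the cell body or axon of pyramidal neurons, and somatostatin marks cells that contact distal dendrites, many of which also make neuropeptide Y. Both classes arise in the medial ganglionic eminence of the embryo. Cells with vasoactive intestinal peptide, many of them also positive for calretinin, and superficial cells with reelin arise largely in the caudal ganglionic eminence. Parvalbumin appears late and rises over the first postnatal weeks. None of the genes is exclusive to interneurons: pyramidal neurons also transcribe Cck and Calb1, olfactory bulb interneurons and mitral cells express Calb2 and Reln, and striatal projection neurons of the direct pathway express Tac1. In a bulk sample, fewer cells of a type and less RNA per cell cannot be told apart.

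The promoters of the members are shown because neuropeptide genes are known targets of the cAMP response factor CREB, whose element was described in the somatostatin promoter. Sequences came from the RefSeq promoter table on GRCm38.p6, which matched 7 of the 10 members (Calb1, Calb2 and Crh had no entry). The 250 bases upstream of each start were searched on both strands for the core TGACG and for the palindrome TGACGTCA, which contains the core on both strands. Of the 32851 promoters in the table, 17.8% held the core and 1.55% the palindrome. The core lay upstream of the RefSeq start in 4 members, all neuropeptide genes, and the palindrome in Sst alone. The GENCODE starts, used for the gene positions below, lie a further 114 (Sst) and 182 (Tac1) bases upstream. The windows shown for Sst and Tac1 therefore fall within the gene as GENCODE draws it. Windows of 30 bases around a core in each are given first, on the strand of the gene, with TGACG or its reverse complement CGTCA in capitals. They lie at chr16:23890874-23890903 (Sst, minus strand), chr10:5639127-5639156 (Vip, plus), chr9:121495724-121495753 (Cck, minus) and chr6:7555006-7555035 (Tac1, plus), and the capitals begin 48, 79, 47 and 43 bases before the RefSeq start.
Sst: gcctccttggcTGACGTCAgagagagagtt
Vip: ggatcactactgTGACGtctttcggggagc
Cck: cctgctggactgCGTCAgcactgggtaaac
Tac1: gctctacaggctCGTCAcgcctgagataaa

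The 3 members called against vehicle under a drug, Pvalb, Npy and Reln, had neither motif in their 250 bases. The 100 bases before their starts are shown for comparison, at chr15:78206401-78206500 (Pvalb, minus strand), chr6:49822610-49822709 (Npy, plus) and chr5:22344706-22344805 (Reln, minus). A match or its absence describes these letters in this window only.
Pvalb: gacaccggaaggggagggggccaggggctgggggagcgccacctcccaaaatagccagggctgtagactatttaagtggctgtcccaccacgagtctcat
Npy: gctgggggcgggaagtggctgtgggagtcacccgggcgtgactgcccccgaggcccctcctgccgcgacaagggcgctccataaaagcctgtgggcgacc
Reln: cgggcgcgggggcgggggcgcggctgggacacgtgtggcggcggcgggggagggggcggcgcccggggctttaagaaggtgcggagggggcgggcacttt

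Libraries held 24.05 to 31.65 M reads, with a median of 28.32 M. Chd8 stood at 2421 to 3072 normalized counts (reads divided by a library size factor) in the 30 Het libraries and at 2951 to 3285 in the 30 WT libraries, and 1 Het library lay above the lowest WT library. The sex-linked genes matched the labelled sex in 60 of 60 libraries. Genes listed for cortical projection neurons were present in every library, with Slc17a7 (a vesicular glutamate transporter of excitatory cells) at 34169 to 54206 and Tbr1 at 1669.9 to 4836. GABA synthesis genes were high in every library, with Gad1 at 6569.8 to 19404. Markers of neighboring regions varied far more: Cdhr1 (an olfactory bulb mitral cell cadherin) ran from 65.2 to 9257, Tbx21 from 0 in 3 libraries to 488, and Drd2 (a dopamine receptor of striatal neurons) from 13.3 to 467. Each such list was summarised per library as a score, the mean of its genes' log2 values centered over the 60 libraries, and these scores stand beside the results below.

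Per length, the peptides Cck, Sst and Npy were the most abundant of the set, at 166 ± 21.8, 154 ± 19.8 and 146 ± 16.7 reads per kilobase of exon scaled to library size (RPKM, SD over the 60 libraries). Their ranges overlapped (113 to 225, 111 to 204 and 109 to 198 RPKM), so these neighbors in the order did not differ beyond their spread. Calb1 followed at 30.2 ± 4.52 RPKM, then Calb2 at 25.3 ± 23.9, Pvalb at 17.8 ± 4.67 and Vip at 14.7 ± 1.93. Tac1 (4.75 ± 2.59), Reln (4.06 ± 1.27) and Crh (3.37 ± 0.623) were lowest and overlapped. On the normalized count scale the coefficient of variation over libraries was 11.6% for Npy, 12.8% for Sst and 13.6% for Cck, against 26.5% for Pvalb, 29.9% for Reln, 54.3% for Tac1 and 92.7% for Calb2. Calb2 spanned 421 to 6272 normalized counts, a 14.9-fold range, whereas Vip spanned 1112 to 1971. The peptides of the most abundant group were thus also the steadiest, and Calb2 and Tac1 were the least steady.

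**Figure D1:**
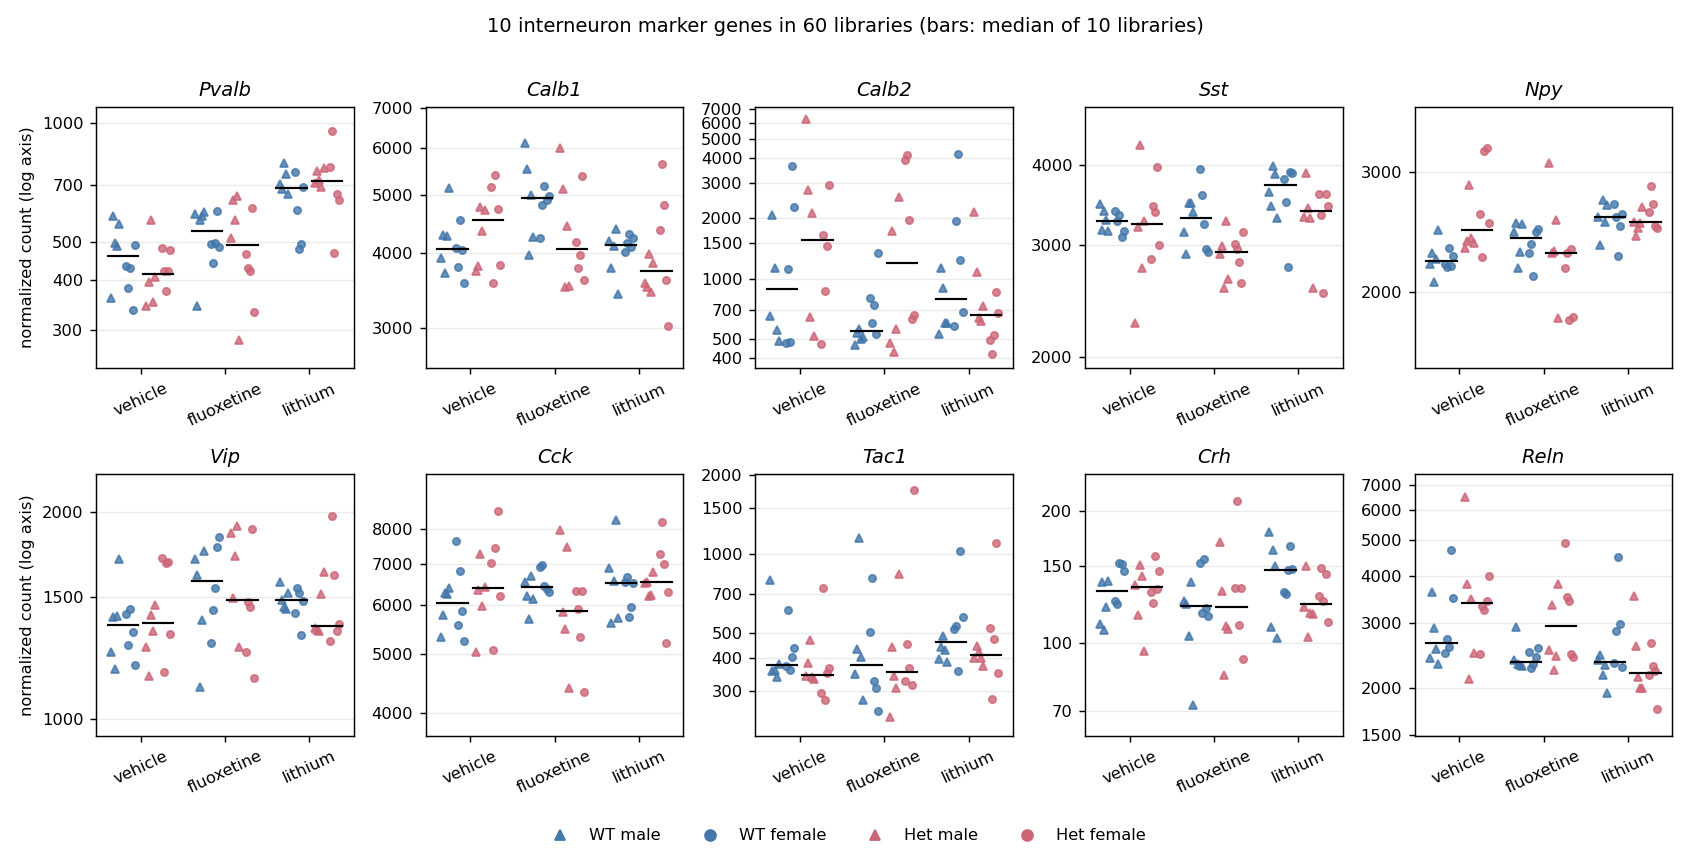
Normalized counts (log axis) of the 10 genes in each library by treatment, with WT in blue, Het in red, males as triangles and females as circles; bars mark the median of the 10 libraries of a genotype and treatment. Pvalb lies at 468 to 959 under lithium against 336 to 582 under vehicle, whereas Calb2 and Tac1 scatter within every treatment.

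Differences were tested with limma on log2(value + 1) over all genes, each comparison averaging its strata of genotype and sex equally, and calls are at a Benjamini-Hochberg adjusted p under 0.05. Under lithium against vehicle over all strata, 2 of 10 members were called, Pvalb higher and Reln lower, beside 19.1% of all tested genes. The median log2 difference of the members was 0.07, against 0.00 over all genes. In Het mice alone the same pair was called (2 of 10, beside 9.14%), in Het males Pvalb alone (1 of 10, beside 2%) and in WT mice Pvalb alone (1 of 10, beside 2.97%). In Het females (0.629% of genes called), WT males (0.0786%) and WT females (0.118%), limma called 0 of 10, with 2 members in each at an unadjusted p under 0.05. In Het females edgeR and DESeq2 on recovered reads each called 1 member, Pvalb, and in WT males and WT females they called 0. The drug comparisons share the vehicle libraries, so their values are not independent of each other.

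Fluoxetine against vehicle called 1 of 10 members in Het mice, Npy lower, beside 32.9% of all genes, and 1 of 10 in Het females, again Npy lower, beside 15.1%. Over all strata limma called 0 of 10, beside 33.6% of genes, with 3 members at an unadjusted p under 0.05, and edgeR called 0 and DESeq2 1 (Vip). In Het males 0 of 10 were called (22.7% of genes, 1 member at an unadjusted p under 0.05). In WT mice 0 of 10 were called (8.2%, 2 members), as in WT males (1.34%, 0 members) and WT females (2.5%, 1 member), and edgeR and DESeq2 called 0 in these 4 comparisons. The median log2 difference of the members over all strata was −0.05, against 0.00 over all genes. The genes that neurons induce with activity fell under fluoxetine in 10 of the 10 listed, with Arc at −1.82 ± 0.12 (log2, SE, limma adjusted p = 1.18e-17) and Fos at −1.25 ± 0.10 (adjusted p = 1.12e-13).

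**Figure D2:**
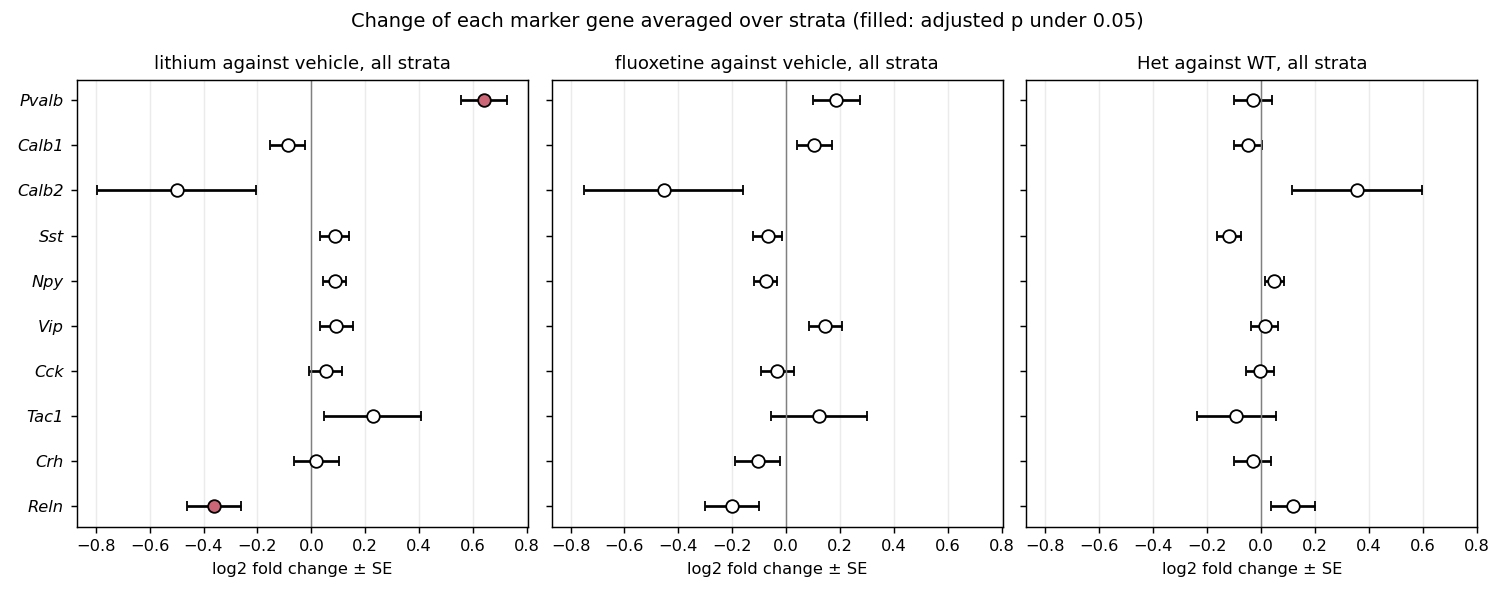
Log2 difference ± SE of each gene for lithium against vehicle, fluoxetine against vehicle and Het against WT, averaged over strata; filled points have a limma adjusted p under 0.05. Only Pvalb (0.64) and Reln (−0.36) under lithium are filled.

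Pvalb (ENSMUSG00000005716, chr15:78191114-78206400 on GRCm38, minus strand) encodes the calcium buffer of fast-spiking interneurons and rose with lithium in both genotypes. In Het males the 5 lithium libraries held 689, 707, 719.5, 757 and 772 normalized counts, and the 5 vehicle libraries held 345, 352, 396, 409 and 569. The groups did not overlap, and every lithium library exceeded the highest vehicle library. In Het females the lithium values were 468, 641, 663, 777 and 959 against 377, 423, 423, 476 and 484 under vehicle, so 4 of 5 lithium libraries lay above all vehicle libraries. In WT males lithium gave 662, 683, 701, 745 and 794 against 361, 488, 499, 555 and 582, again without overlap. In WT females the values were 480.4, 495, 603, 691 and 754 against 336, 383, 431, 436 and 491, and the lowest lithium library fell within the vehicle range.

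Averaged over the 4 strata, Pvalb was 1.56-fold higher under lithium (log2 difference 0.64 ± 0.09, SE; limma adjusted p = 5.47e-07), and 20 of 20 lithium libraries lay above the vehicle mean of their stratum. The difference was 0.74 ± 0.12 in Het mice (adjusted p = 9.32e-05) and 0.54 ± 0.12 in WT mice (adjusted p = 0.00884). By stratum it was 0.84 ± 0.17 in Het males (adjusted p = 0.00535), 0.65 ± 0.17 in Het females (adjusted p = 0.0523), 0.54 ± 0.17 in WT males (adjusted p = 0.293) and 0.53 ± 0.17 in WT females (adjusted p = 0.192). Neither genotype nor sex was shown to alter it: the lithium-by-genotype difference was 0.21 ± 0.17 (adjusted p = 0.99) and the lithium-by-sex difference 0.10 ± 0.17 (adjusted p = 0.941). The lithium difference of Pvalb over all strata was as large without the 15 libraries of highest olfactory bulb score (0.63, adjusted p = 7.62e-05), and without the 15 of highest striatum score it was 0.57 (adjusted p = 9.3e-05). In WT mice the call was lost without the latter (0.43, adjusted p = 0.147), and in Het males without the former (0.60, adjusted p = 0.541), which removed 3 of the 5 vehicle and 1 of the 5 lithium libraries.

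Under fluoxetine Pvalb held 282 to 657 normalized counts with a median of 506, against 336 to 582 and 427 under vehicle, and the groups overlapped. The difference over all strata was 0.19 ± 0.09 (limma adjusted p = 0.0871), and it passed the threshold without the 15 libraries of highest striatum score (0.26, adjusted p = 0.0193). The lowest Pvalb value of the 60 libraries, 282, came from a Het fluoxetine male with an olfactory bulb score of 2.13 and a striatum score of 1.34, and the highest, 959, from a Het lithium female with scores of −2.54 and −0.56. Compared directly, Pvalb was lower under fluoxetine than under lithium (−0.45 ± 0.09, adjusted p = 4.44e-05, in 19 of 20 libraries).

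**Figure D3:**
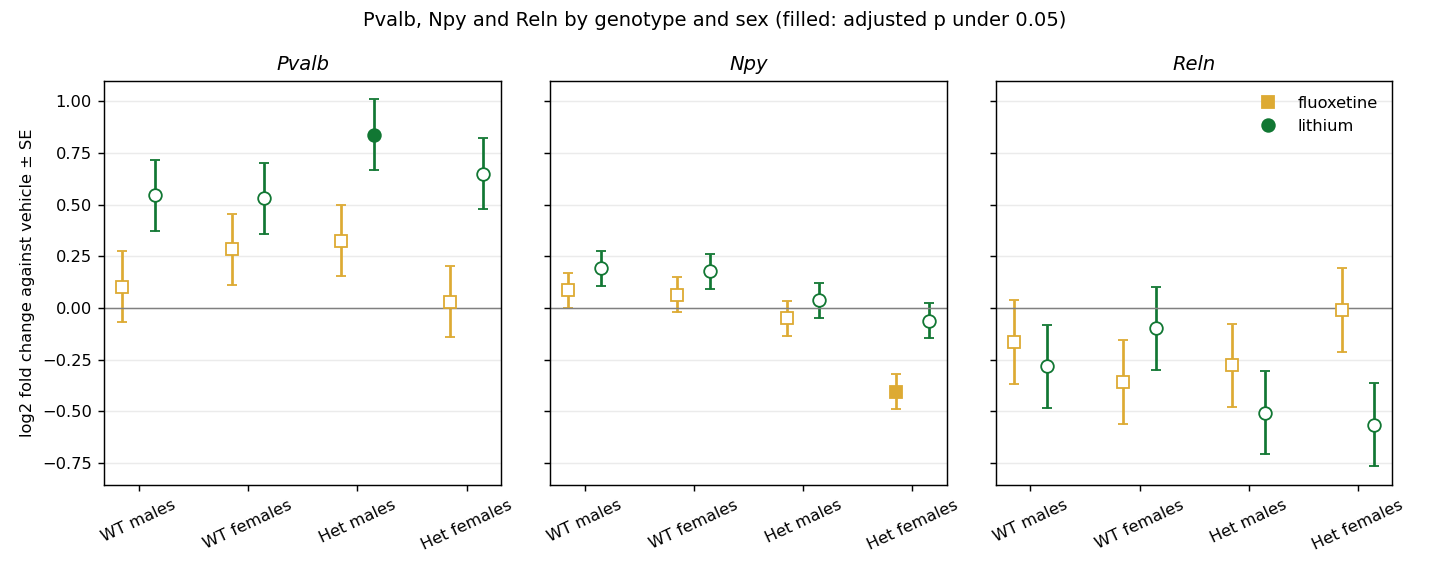
Log2 difference ± SE from vehicle of Pvalb, Npy and Reln under fluoxetine (squares) and lithium (circles) in each genotype and sex, with filled symbols for a limma adjusted p under 0.05. Pvalb under lithium is above 0 in all 4 strata (0.53 to 0.84), and Npy under fluoxetine is filled in Het females (−0.40).

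Calb1 (ENSMUSG00000028222, chr4:15881264-15908064, plus strand) encodes calbindin, a calcium buffer shared by many Sst interneurons and by superficial pyramidal neurons. It held 3565 to 5409 normalized counts under vehicle (median 4182), 3519 to 6106 under fluoxetine (median 4629.8) and 3025 to 5645 under lithium (median 4056), and the 3 ranges overlapped. Neither drug gave a call against vehicle over all strata, with differences of 0.10 ± 0.06 for fluoxetine (limma adjusted p = 0.217) and −0.09 ± 0.06 for lithium (adjusted p = 0.365). The direct comparison was called, with Calb1 higher under fluoxetine than under lithium by 0.19 ± 0.06 (adjusted p = 0.0205, 14 of 20 libraries above the lithium mean of their stratum). In WT mice the fluoxetine difference was 0.24 ± 0.09 (adjusted p = 0.0951), with 9 of 10 libraries on its side, and in Het mice it was −0.03 ± 0.09 (adjusted p = 0.837). The difference between these values was not called (−0.27 ± 0.13, adjusted p = 0.223).

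Calb2 (ENSMUSG00000003657, chr8:110137502-110168210, minus strand) encodes calretinin, made by Vip interneurons of the cortex and by granule and periglomerular cells of the olfactory bulb. It ran from 474 to 6272 normalized counts under vehicle, 429 to 4155 under fluoxetine and 421 to 4193 under lithium, with medians of 1129, 617 and 679. These ranges covered each other almost wholly, and the differences were −0.45 ± 0.29 for fluoxetine (limma adjusted p = 0.24) and −0.50 ± 0.29 for lithium (adjusted p = 0.238). The libraries with the 3 highest Calb2 values (6272, 4193 and 4155) were a Het vehicle male, a WT lithium female and a Het fluoxetine female, with olfactory bulb scores of 3.31, 2.99 and 2.66. The library with the lowest value (421), a Het lithium female, had a score of −2.54.

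Npy (ENSMUSG00000029819, chr6:49822710-49829507, plus strand) encodes an inhibitory peptide of neurogliaform cells and many Sst cells, and it fell with fluoxetine in Het females. The Het fluoxetine females held 1820.4, 1836, 2167, 2284 and 2312 normalized counts, and the Het vehicle females held 2256, 2529, 2607, 3217 and 3252. Of the fluoxetine libraries, 3 of 5 lay below every vehicle library. In Het males fluoxetine gave 1836, 2284, 2302, 2552 and 3089 against 2325, 2360.4, 2379, 2402 and 2875, so here too 3 of 5 lay below every vehicle library, while the other 2 lay above most of them. In WT mice fluoxetine gave 2111 to 2523 with a median of 2403 and vehicle 2070.2 to 2466 with a median of 2220.4, so the WT groups overlapped too. The Het vehicle libraries themselves ran from 2256 to 3252, and part of that range lay above every WT vehicle library.

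The fluoxetine difference of Npy was −0.40 ± 0.08 in Het females (limma adjusted p = 0.000841, 5 of 5 libraries) and −0.23 ± 0.06 in Het mice of both sexes (adjusted p = 0.00266, 8 of 10 libraries). It was −0.05 ± 0.08 in Het males (adjusted p = 0.714) and 0.08 ± 0.06 in WT mice (adjusted p = 0.465). The difference between genotypes was called, with 1 of 10 members beside 1.7% of genes, at −0.30 ± 0.08 (adjusted p = 0.0488). The difference between sexes, averaged over both genotypes, was not called (0.19 ± 0.08, adjusted p = 0.989). Whether the fluoxetine response differed between the sexes within Het mice alone was not tested. The genotype difference in the fluoxetine response lay at the threshold: it was lost in 26 of the 40 fits that left out 1 library, with adjusted p from 0.00882 to 0.0949. It was also lost when the other groups were left out of the fit (adjusted p = 0.0963) and without the 15 libraries of highest olfactory bulb score (−0.29, adjusted p = 0.248) or striatum score (−0.21, adjusted p = 0.676). The fall in Het mice likewise lost its call without the other groups in the fit (adjusted p = 0.0574), without the first 15 (−0.22, adjusted p = 0.0587) and without the second (−0.13, adjusted p = 0.116). In Het females it was lost without the other groups (adjusted p = 0.053) and without the striatum-high libraries (−0.30, adjusted p = 0.056).

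Under lithium Npy held 2259 to 2858 normalized counts (median 2556) against 2070.2 to 3252 (median 2323) under vehicle. In WT mice the lithium difference was 0.19 ± 0.06 (limma adjusted p = 0.0734), in the same direction in 10 of 10 libraries, and in Het mice it was −0.01 ± 0.06 (adjusted p = 0.928). With the region scores as covariates the WT difference passed the threshold (0.18, adjusted p = 0.0306). Fluoxetine against lithium over all strata called 4 of 10 members beside 28.9% of genes, and Npy was one of the 3 lower ones, at −0.16 ± 0.04 (adjusted p = 0.00243, 18 of 20 libraries). This call was lost without the 15 libraries of highest striatum score (−0.09, adjusted p = 0.125).

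Sst (ENSMUSG00000004366, chr16:23889573-23890958, minus strand) encodes the peptide of dendrite-targeting interneurons. Medians were 3268 normalized counts under vehicle (2257 to 4292), 2998 under fluoxetine (2563 to 3947) and 3472 under lithium (2518 to 3988), and the 3 ranges overlapped. Against vehicle the differences were −0.07 ± 0.05 for fluoxetine (limma adjusted p = 0.345) and 0.09 ± 0.05 for lithium (adjusted p = 0.281). Fluoxetine against lithium was called, at −0.16 ± 0.05 (adjusted p = 0.0273, 18 of 20 libraries), and the call was lost without 1 Het lithium male (adjusted p = 0.0513) and without the 15 libraries of highest striatum score (−0.10, adjusted p = 0.344). In Het mice under fluoxetine Sst lay at −0.15 ± 0.08 (adjusted p = 0.137), at −0.18 (adjusted p = 0.0376) with the region scores as covariates and at −0.31 (adjusted p = 0.0332) without the 15 libraries of highest olfactory bulb score.

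Vip (ENSMUSG00000019772, chr10:5639218-5647617, plus strand) encodes the peptide of interneurons that mainly inhibit other interneurons. It held 1153 to 1713 normalized counts under vehicle (median 1372), 1112 to 1908 under fluoxetine (median 1523) and 1295 to 1971 under lithium (median 1468). Over all strata the fluoxetine difference was 0.14 ± 0.06 (limma adjusted p = 0.0604) and the lithium difference 0.09 ± 0.06 (adjusted p = 0.307). The fluoxetine difference stood close to the threshold and crossed it with DESeq2 (0.15, adjusted p = 0.0454), with the region scores as covariates (0.13, adjusted p = 0.016), without the 15 libraries of highest striatum score (0.18, adjusted p = 0.0234) and in 10 of the 40 fits that left out 1 library. Without the 15 libraries of highest olfactory bulb score it was 0.15 (adjusted p = 0.203). In Het males it was 0.30 ± 0.12 (adjusted p = 0.0633), and 0.29 (adjusted p = 0.0109) with the scores as covariates. In Het females it was −0.08 ± 0.12 (adjusted p = 0.721), in WT males 0.12 ± 0.12 (adjusted p = 0.782) and in WT females 0.23 ± 0.12 (adjusted p = 0.327).

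Cck (ENSMUSG00000032532, chr9:121489824-121495694, minus strand), a peptide of basket interneurons and of many pyramidal neurons, had medians of 6271, 6323 and 6538 normalized counts under vehicle, fluoxetine and lithium. Its differences from vehicle over all strata were −0.03 ± 0.06 for fluoxetine (limma adjusted p = 0.714) and 0.05 ± 0.06 for lithium (adjusted p = 0.591). In Het females under fluoxetine it stood at −0.27 ± 0.12 (adjusted p = 0.125), with 5 of 5 libraries below the vehicle mean. Crh (ENSMUSG00000049796, chr3:19693401-19695396, minus strand), the stress peptide made by a subset of interneurons, had medians of 134, 122 and 130.3, with differences of −0.11 ± 0.08 (adjusted p = 0.344) and 0.02 ± 0.08 (adjusted p = 0.912). The groups of both genes overlapped in every treatment.

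Tac1 (ENSMUSG00000061762, chr6:7554879-7565834, plus strand), whose peptides act on neurokinin receptors, held 276 to 793 normalized counts under vehicle, 239 to 1748 under fluoxetine and 280.1 to 1099 under lithium, with medians of 364, 359 and 435. Its differences were 0.12 ± 0.18 for fluoxetine (limma adjusted p = 0.635) and 0.23 ± 0.18 for lithium (adjusted p = 0.399). The highest 3 libraries (1748, 1144 and 1099) were a Het fluoxetine female, a WT fluoxetine male and a Het lithium female, and their striatum scores were 2.51, 2.23 and 2.13.

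Reln (ENSMUSG00000042453, chr5:21884454-22344702, minus strand) encodes a secreted guidance protein made by Cajal-Retzius cells, by superficial interneurons and by olfactory bulb mitral cells, and it fell with lithium in Het mice. Het lithium males held 2001, 2003, 2147, 2596 and 3531 normalized counts against 2120.5, 2487, 3475, 3807 and 6519.7 under vehicle. Het lithium females held 1756, 2171, 2227, 2288 and 2645 against 2463, 3246, 3329, 3423 and 3995. In females 4 of 5 lithium libraries lay below every vehicle library, and in males 2 of 5 did. In WT mice lithium gave 1937 to 4498 (median 2354) against 2318 to 4684 (median 2652), with 4 of 10 lithium libraries below the vehicle range.

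The lithium difference of Reln over all strata was −0.36 ± 0.10 (limma adjusted p = 0.00803, 18 of 20 libraries), in Het mice −0.54 ± 0.14 (adjusted p = 0.0129, 9 of 10 libraries) and in WT mice −0.19 ± 0.14 (adjusted p = 0.521). The lithium-by-genotype difference was −0.35 ± 0.20 (adjusted p = 0.99), so the genotypes were not shown to differ. Reln moved with the olfactory bulb genes: among the 15 libraries of highest olfactory bulb score it held 2854 to 6519.7 (median 3629.6), and among the other 45 libraries 1756 to 3423 (median 2409). The summed counts of the 10 olfactory bulb genes were 2546 to 28533 in the vehicle libraries (median 5339), 1739 to 20957 under lithium (median 3175) and 1546 to 16346 under fluoxetine (median 3377). With both region scores as covariates the lithium difference of Reln was −0.22 over all strata (adjusted p = 0.00603) and −0.30 in Het mice (adjusted p = 0.0184). Without the 15 highest olfactory bulb libraries it was −0.20 (adjusted p = 0.0235) and −0.28 (adjusted p = 0.071), and without the 15 highest striatum libraries −0.29 (adjusted p = 0.155) and −0.52 (adjusted p = 0.0766). Markers of Cajal-Retzius cells were low (Lhx5 at 0 in 13 libraries, Trp73 at 3.94 to 73.2). Of the 4 measured 1, Lhx5, fell under lithium (−1.33 ± 0.47, adjusted p = 0.0391), beside 19.1% of all genes called. With the region scores as covariates Lhx5 was not called (−0.80, adjusted p = 0.105), and Trp73 was called higher (0.48, adjusted p = 0.047).

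Genotype did not change any member beyond the threshold. Het against WT called 0 of 10 members with limma under vehicle in males (0.0168% of genes called), in females (0.0225%) and over both sexes (0.0562%), under fluoxetine (7.33%), under lithium (0.0393%) and over all strata (1.54%). At an unadjusted p under 0.05 there were 0, 1, 1, 3, 0 and 1 members in the same order. Under fluoxetine edgeR and DESeq2 each called 1 member, Calb2 higher in Het mice (1.32 and 1.33), which limma put at 0.96 ± 0.42 (adjusted p = 0.142), and in the other 5 comparisons they called 0. That Calb2 difference was 0.06 (adjusted p = 0.793) with the region scores as covariates. Het fluoxetine libraries held olfactory bulb sums of 1546 to 16346 (median 5614) and WT fluoxetine libraries 2243 to 5519 (median 3171).

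Among members below the threshold for genotype, Npy under vehicle was 0.22 ± 0.06 higher in Het mice (limma adjusted p = 0.33), with 10 of 10 Het libraries above the WT mean of their sex. Sst over all strata was −0.12 ± 0.04 (adjusted p = 0.177), at 2257 to 4292 normalized counts in Het libraries (median 3165) and 2763 to 3988 in WT libraries (median 3377). Pvalb stood at −0.03 ± 0.07 (adjusted p = 0.879), Vip at 0.01 ± 0.05 (adjusted p = 0.937) and Cck at 0.00 ± 0.05 (adjusted p = 0.981). Of the interneuron subclass genes outside the set, 2 of 20 were called for genotype over all strata, beside 1.54% of all genes. Sncg, a marker of Cck basket cells, fell (−0.89 ± 0.11, adjusted p = 8.98e-07) and Cbln4, a synaptic organizer of Sst cells, rose (0.38 ± 0.10, adjusted p = 0.0462). The 7 caudal eminence genes gave 0 calls, as did the medial eminence and GABA synthesis genes.

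Sex gave 0 calls among the 10 members (limma, males against females over all strata, 0.14% of genes called, 1 member at an unadjusted p under 0.05), and edgeR and DESeq2 gave 0 as well. Crh was the member with the smallest p, at −0.15 in males (adjusted p = 1). The responses to fluoxetine and to lithium by sex, and to lithium by genotype, gave 0 calls among the members and 0% of all genes, with 1, 0 and 1 members at an unadjusted p under 0.05 and 0 calls by edgeR or DESeq2 among the members.

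Within groups, several members followed the region scores. In a fit with both scores, 6 of 10 members had a slope on the olfactory bulb score that passed the threshold, beside 15.7% of genes, and 5 of 10 on the striatum score, beside 9.73%. Calb2 rose by 0.65 ± 0.02 per unit of olfactory bulb score (limma adjusted p = 1.22e-28) and Reln by 0.19 ± 0.02 (adjusted p = 3.92e-12). Tac1 rose by 0.65 ± 0.04 per unit of striatum score (adjusted p = 2.15e-19). In the opposite direction, Vip, Npy, Cck and Calb1 fell on both scores, for instance Vip by 0.06 ± 0.01 on the olfactory bulb score (adjusted p = 0.00067) and by 0.15 ± 0.02 on the striatum score (adjusted p = 8.97e-07). Pvalb (−0.06 ± 0.02, adjusted p = 0.0663, and −0.10 ± 0.04, adjusted p = 0.13), Sst (−0.04 ± 0.02, adjusted p = 0.0914, and 0.08 ± 0.03, adjusted p = 0.064) and Crh passed for neither.

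**Figure D4:**
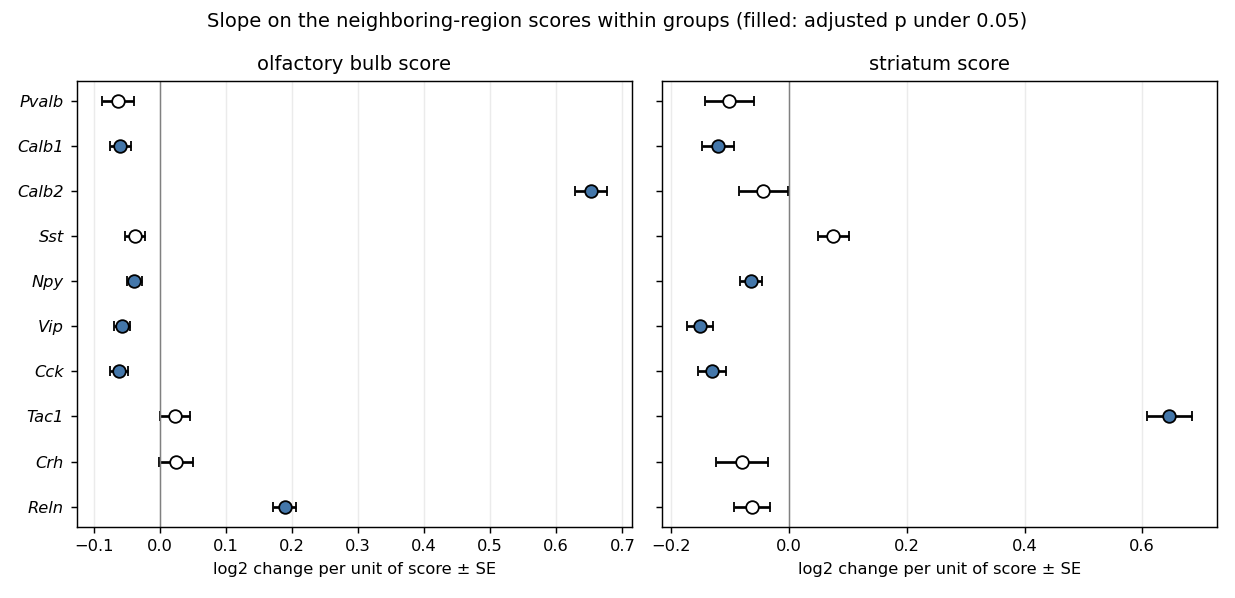
Slope ± SE of each gene on the olfactory bulb and striatum scores, as log2 change per unit of score within groups; filled points have a limma adjusted p under 0.05. Calb2 (0.65) and Reln (0.19) stand out on the olfactory bulb score and Tac1 (0.65) on the striatum score.

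The ranges show the same split. Calb2 held 1733 to 6272 normalized counts in the 15 libraries of highest olfactory bulb score and 421 to 1652 in the other 45, without overlap. Tac1 held 349.7 to 1748 (median 738) in the 15 libraries of highest striatum score and 239 to 533 (median 366) in the other 45. Vip differed less, at 1112 to 1690.3 (median 1295) and 1153 to 1971 (median 1489.8) on that split. The libraries of high olfactory bulb score were spread unevenly, with 3 each in the Het fluoxetine females and Het vehicle males and 0 in the WT fluoxetine males, WT fluoxetine females, Het lithium females and WT lithium males. Beyond the fits given above, the part of the region genes in the treatment differences was not tested.

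**Figure D5:**
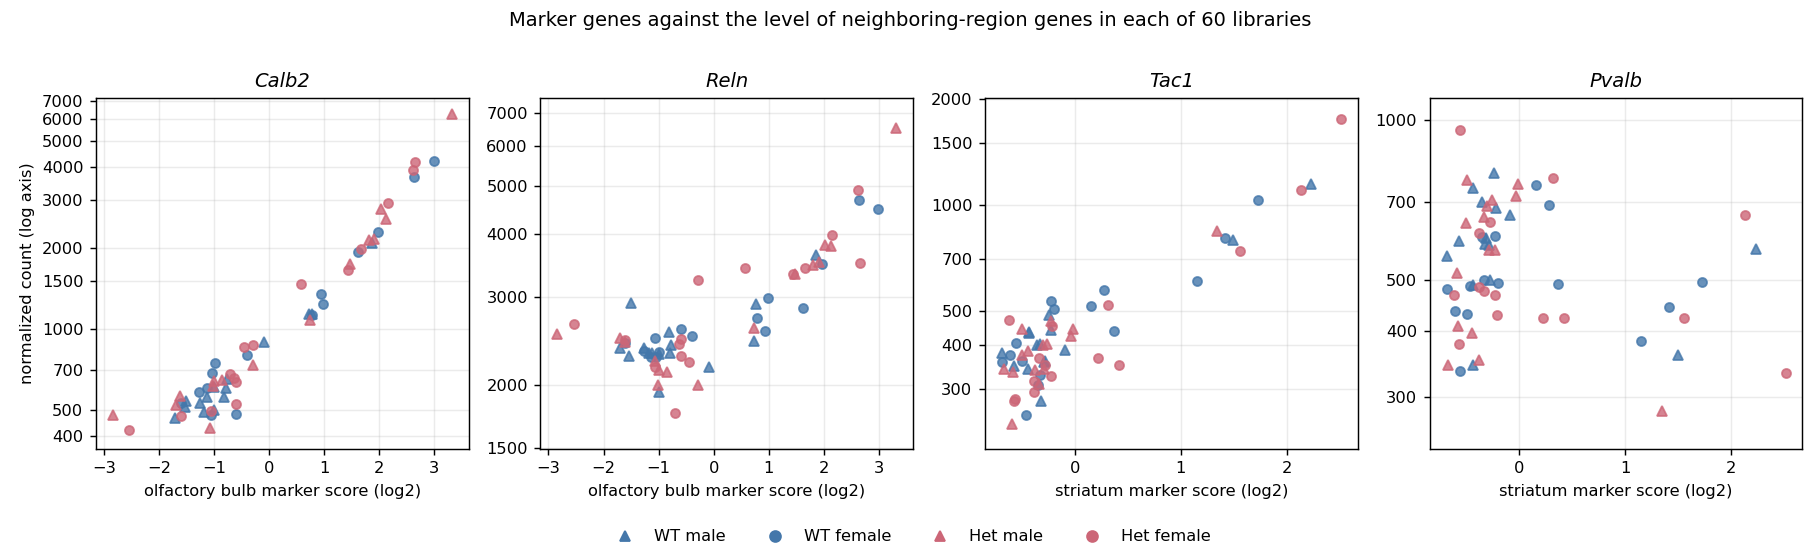
Normalized count (log axis) of Calb2 and Reln against the olfactory bulb score and of Tac1 and Pvalb against the striatum score in the 60 libraries, with WT in blue, Het in red, males as triangles and females as circles. Calb2 climbs from 421 to 6272 along the olfactory bulb score and Tac1 reaches 1748 at the highest striatum score.

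Among themselves the members held a group that varied together, made up of Npy, Cck, Vip and Calb1. Pearson's r of log2 values centered within groups over the 60 libraries was 0.71 for Npy and Cck, 0.68 for Vip and Calb1, 0.66 for Cck and Calb1 and 0.65 for Vip and Npy. Calb2 and Reln reached 0.88. Tac1 ran against Vip (−0.71) and Cck (−0.55). The points share library, depth and tissue makeup, so these values describe covariation in these libraries. Pvalb correlated most with Cck among the members (0.46) and with Sst at 0.32.

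Over all tested genes with a mean of at least 50, the closest to Calb2 by the same measure were Doc2g (0.97), Th (0.95) and Gng4 (0.95), of which Doc2g and Th were among the listed olfactory bulb genes. The closest to Tac1 were Rgs9 (0.95), a listed striatal gene, Gng7 (0.91) and Rarb (0.91), and the closest to Reln were Myo16 (0.92), Calb2 (0.88) and Gng4 (0.88). Vip was closest to Camk2n1 (0.86), Lamp5 (0.86) and Slc30a3 (0.85), Npy to Cdk5r2 (0.82), Lhx2 (0.80) and Dlg4 (0.78), and Cck to Cdk5r2 (0.87), Sept5 (0.86) and Lrrc73 (0.85). Calb1 was closest to Rasgef1c (0.84), Gm12371 (0.84) and Cacng3 (0.84). Sst was closest to Cadm4 (0.76), Hip1r (0.76) and Diras1 (0.76), Pvalb to Adra1b (0.69), with Sult4a1 also near (0.69), and Crh to Dnajb11 (0.71), Igfbp7 (0.67) and Pmepa1 (0.67). The likeness was thus highest for the members that followed a region score and lowest for Pvalb and Crh.

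Other genes of the same cells were taken from lists. The GABA synthesis genes Gad1 and Gad2 were not called over all strata, with log2 differences of 0.05 ± 0.09 (limma adjusted p = 0.756) and −0.04 ± 0.07 (adjusted p = 0.769) under lithium. With the region scores as covariates Gad1 passed the threshold (0.17, adjusted p = 0.0204). Under fluoxetine neither was called (0.05 ± 0.09, adjusted p = 0.702, and 0.08 ± 0.07, adjusted p = 0.384). Both passed there with the covariates (0.19, adjusted p = 0.00766, and 0.09, adjusted p = 0.0468). Among medial ganglionic eminence genes, Lhx6, the transcription factor of the Pvalb and Sst lineages, rose under lithium (0.31 ± 0.07, adjusted p = 0.000666), and Sox6, which acts in the same lineage, fell (−0.19 ± 0.03, adjusted p = 4.61e-05), and both kept their call with the region scores as covariates (0.25, adjusted p = 0.00112, and −0.20, adjusted p = 9.73e-06). Satb1 passed the threshold only in that fit of the 2 (−0.12, adjusted p = 0.0469, against −0.10, adjusted p = 0.103). Of the 7 caudal eminence genes 2 fell under lithium, Nr2f2 (−0.24 ± 0.06, adjusted p = 0.00202) and Adarb2 (−0.36 ± 0.09, adjusted p = 0.00461), beside 19.1% of all genes called. Dlx6os1, a noncoding RNA of the Dlx locus, fell (−0.64 ± 0.18, adjusted p = 0.00864).

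Of 20 further subclass genes 4 rose and 3 fell under lithium. Those that rose included Crhbp, a binding protein for Crh found in Sst cells (0.22 ± 0.05, limma adjusted p = 0.00131), and Rbp4 (0.36 ± 0.09, adjusted p = 0.0032). Syt2, a synaptotagmin of Pvalb terminals (0.37 ± 0.13, adjusted p = 0.0391), and Kcnc1, the potassium channel of fast-spiking cells (0.10 ± 0.03, adjusted p = 0.0391), rose as well. With the region scores as covariates Kcnc1 kept its call (0.11, adjusted p = 0.0165) and Syt2 did not (0.32, adjusted p = 0.0662). Those that fell included Erbb4, a neuregulin receptor of Pvalb cells (−0.18 ± 0.04, adjusted p = 0.000654). In Het mice, where 9.14% of all genes were called, Syt2 was the 1 of 20 that rose (0.60 ± 0.19, adjusted p = 0.0325). Ndnf, Grin3a and Erbb4 fell there (−0.78 ± 0.20, −0.19 ± 0.05 and −0.17 ± 0.05). With the region scores as covariates the calls of Syt2 (0.51, adjusted p = 0.0646) and Erbb4 (−0.15, adjusted p = 0.0593) in Het mice were lost. Under fluoxetine 2 of 20 rose, Sncg (0.41 ± 0.14, adjusted p = 0.0207) and Lamp5 (0.26 ± 0.09, adjusted p = 0.0235), and 2 fell, Elfn1 (−0.13 ± 0.04, adjusted p = 0.0177) and Kcnc1 (−0.10 ± 0.03, adjusted p = 0.0199). Both falls lost their call with the covariates (adjusted p = 0.0565 and 0.0691). Lhx6 rose under fluoxetine too (0.23 ± 0.07, adjusted p = 0.00446), whereas Satb1 (−0.13 ± 0.04, adjusted p = 0.0118) and Sox6 (−0.10 ± 0.03, adjusted p = 0.0178) fell. Each kept its call with the region scores as covariates (adjusted p = 0.0281, 0.0044 and 0.00416). These counts, 7 of 20 and 4 of 20, stand beside the 19.1% and 33.6% of all genes given above.

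Of the 15 measured receptors of the peptides, 3 rose and 4 fell under fluoxetine, beside 33.6% of all genes called, with a median log2 difference of −0.15. Vipr1, a receptor of Vip, fell (−0.42 ± 0.05, limma adjusted p = 7.55e-09), as did Cckbr, the brain receptor of Cck (−0.35 ± 0.05, adjusted p = 4.88e-07), and Sstr3 (−0.13 ± 0.03, adjusted p = 0.0024), and Npy5r rose (0.25 ± 0.06, adjusted p = 0.00144). In Het mice Vipr1 (−0.51 ± 0.07, adjusted p = 6.09e-07) and Cckbr (−0.44 ± 0.07, adjusted p = 6.57e-06) fell as well. Under lithium 1 of 15 rose, Sstr2 (0.30 ± 0.10, adjusted p = 0.0202), and 1 fell, Npy1r (−0.13 ± 0.05, adjusted p = 0.0431), beside 19.1% of all genes called. The reelin receptors and their signaling genes gave 0 of 6 calls under lithium, where Reln fell, with Vldlr at 0.02 and Lrp8 at 0.05. Under fluoxetine, where Reln was not called, Lrp8 fell (−0.21 ± 0.06, adjusted p = 0.00438), as did the adapter Crkl (−0.09 ± 0.03, adjusted p = 0.0138), and Dab1, the adapter that becomes phosphorylated when reelin binds its receptors, rose (0.08 ± 0.03, adjusted p = 0.0302).

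Markers of other cells were counted in the same comparisons, in which 19.1% (lithium) and 33.6% (fluoxetine) of all tested genes were called. Under lithium over all strata, limma called 0 of 10 oligodendrocyte, 2 of 6 astrocyte (both lower), 1 of 8 microglial (lower), 2 of 6 endothelial (both lower), 0 of 5 choroid plexus and 3 of 10 cortical projection neuron genes (2 higher, 1 lower). Under fluoxetine the counts were 0 of 10, 3 of 6 (1 higher), 3 of 8 (2 higher), 2 of 6 (both lower), 0 of 5 and 3 of 10 (1 higher). The olfactory bulb list had 1 of 10 lower under lithium (median −0.69) and 2 of 10 lower under fluoxetine (median −0.81), and the striatum list 0 of 10 and 3 of 10 higher. The 10 activity-induced genes had 3 lower under lithium.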

How the data were processed

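RNA of 60 mice was sequenced after TruSeq Stranded mRNA library preparation, per the labels' protocols. Salmon 0.11.2, GRCm38, R 3.6.0 and DESeq2 1.19.11 are listed, per the submitters' processing notes. The authors deposited a normalized signal per gene that behaves as whole reads divided by a library size factor: 100% of values were whole multiples of a column's step (tolerance 0.001). GENCODE M21 named 18077 genes and gave exon lengths.

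limma 3.58.1 (R 4.3.3, intensity trend) was fitted to log2(value + 1), a scale that understates changes of low genes, with 12 group means, 60 libraries and 48 residual degrees of freedom. Tested genes reached 10 in 5 or more libraries. The 26 contrasts were two-sided, adjusted within each. Alternatives were quantile and total scaling, a pseudocount of 10, no filter, fewer groups, a replicate block, edgeR 4.0.16 and DESeq2 1.42.0 on recovered reads, region scores as covariates, and leaving out libraries. The fit was tested on simulated data.

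Named genes were the 10 members, up to 4 of a list with the smallest p in a described comparison, and the 3 genes (mean of at least 50) most correlated with each member. Region and cell markers named for their levels were chosen after their values were seen. Members and lists were chosen with earlier results of these data known. Some list genes are not reported here.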

Additional observations from a re-analysis of the deposited data

Results flagged for a closer look

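In 120 groups of 5 libraries (10 genes in 12 groups), 9 had a library whose gap to its neighbor exceeded Dixon's 95% critical value of 0.71 times the range; chance gives about 6, or 1 in 20. Tac1 accounted for 4 of them: 1748.0 normalized counts in a Het fluoxetine female (next 453), 738 in a Het vehicle female (next 366), 1144 in a WT fluoxetine male (next 434) and 793 in a WT vehicle male (next 379). Pvalb had a high Het vehicle male at 569 (next 409) and a low WT fluoxetine male at 345 (next 569.9). Npy had a high Het vehicle male at 2875 (next 2402), Sst a low Het lithium female at 2518 (next 3339), and Reln a high WT fluoxetine male at 2916 (next 2373.1). The fluoxetine response of Npy differed between genotypes by −0.30 on the log2 scale (limma adjusted p = 0.0488).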

How the results depend on the processing

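Each member was followed through 26 comparisons. Of 2840 such values in alternative fits, 2635 kept their sign and their side of the threshold, 29 passed it newly and 15 lost it. Another 161, called in neither fit, changed sign, 138 of them in the fits that used the region scores. With 1 library left out, 249 of 6400 did. None of the values that changed sign was called in either fit. Counts of members called moved as follows. Fitting only the groups compared gave 0 for fluoxetine in Het females (1 in the analysis reported), 0 for fluoxetine in Het mice (1), 1 for fluoxetine in WT mice (0), 2 for lithium in WT mice (1) and 0 for fluoxetine by genotype (1). Rescaling totals gave 1 for fluoxetine over all strata (0) and 1 for lithium in Het females (0). edgeR gave 1 for Het against WT under fluoxetine (0) and 1 for lithium in Het females (0), and DESeq2 gave 1 for both, 1 for fluoxetine over all strata (0) and 2 for lithium in WT mice (1). With region scores as covariates there were 1 for fluoxetine in Het males (0), 3 in Het mice (1) and 2 over all strata (0), and 2 for lithium in WT mice (1) and 1 in Het females (0), and fluoxetine against lithium rose from 4 to 6 with Tac1 (−0.18, adjusted p = 0.0485) and Reln (0.19, adjusted p = 0.00868). Without the 15 libraries of highest olfactory bulb score there were 0 for fluoxetine by genotype (1), 0 for lithium in Het males (1), 2 in Het females (0) and 1 in Het mice (2). Without the 15 of highest striatum score there were 2 for fluoxetine in Het males (0), 0 in Het females (1), 2 over all strata (0), 0 for fluoxetine by genotype (1), 0 for lithium in WT mice (1), 1 in Het mice (2), 1 over all strata (2) and 2 for fluoxetine against lithium (4). The cause was not tested. Over all genes limma called 3401 for lithium and 5986 for fluoxetine over all strata, and edgeR on recovered reads called 3492 and 5926. For fluoxetine by genotype limma called 303, edgeR 317 and DESeq2 840.

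Leaving out each library in turn gave 0 to 1 for fluoxetine in WT mice, 0 to 2 in Het males, 1 to 2 in Het females, 1 to 2 in Het mice, 0 to 2 over all strata, 0 to 1 for fluoxetine by genotype, 1 to 2 for lithium in WT mice, 1 to 2 in Het males, 0 to 1 in Het females and 3 to 4 for fluoxetine against lithium. Het fluoxetine male 5 was the library whose absence brought Pvalb and Vip past the threshold in Het males, and the absence of Het lithium female 3, Het vehicle male 3, Het vehicle female 2, WT lithium female 3 and WT fluoxetine male 3 did so for Pvalb and Reln under lithium in Het females and Het males, Cck under fluoxetine in Het females, Npy under lithium in WT mice and Calb1 under fluoxetine in WT mice. Sst under fluoxetine in Het mice passed without Het vehicle male 1, and over all strata Npy passed without Het fluoxetine male 1, Reln without Het vehicle male 3, and Pvalb without any of 4 libraries. The Sst call for fluoxetine against lithium was lost without Het lithium male 2. Replicate numbers did not pair the libraries: over 330 pairs with the same number the median correlation of deviations was 0.00 (−0.28 to 0.29), and 13 of 60 libraries were closest to their own number. The replicate block kept each count of members called, 2 for lithium over all strata included. With 24.05 to 31.65 M reads, depth limits Crh most (72.4 to 211 normalized counts). The region scores come from the same libraries as the members, so covariate fits are not independent of composition.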
